A study of Drosophila melanogaster with 3 samples.

Results

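The nuclear receptor genes of the ecdysone response were described for binding of Dek, a chromatin protein, in fly embryos. The members were EcR, usp, Eip75B, Eip78C, Hr3, Hr4, Hr38, Hr39, Hr78 and ftz-f1, taken by symbol from the annotation of the dm6 build, 10 of 13968 protein-coding genes. Chromatin immunoprecipitation followed by sequencing (ChIP-seq) had been done on whole embryos of both sexes collected over 0 to 24 h. The embryos carried a stable transgene for Dek with GFP fused to its C terminus, and the labels' description says that an antibody against GFP was used, while another label field gives the antibody as Dek. All 3 biological replicates formed 1 group, no untagged or input library was analysed here, and every count below describes that line alone. The embryos were pooled over stages and tissues, so a peak cannot be given to a stage or a cell type. The labels give no promoter for the transgene and do not say whether the line keeps its own Dek.

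The authors deposited a list of 30000 peaks for each replicate, a pooled list of 30000 peaks and a list of 4736 peaks kept after the irreproducible discovery rate (IDR) step, called IDR peaks here. Each peak has a summit and a signal, the authors' own score in an unstated unit. A place is the order of a peak by signal within its list, with 1 the strongest. All 4736 IDR peaks were the 4736 strongest pooled peaks, so the IDR and pooled signals are the same values. Signals of different lists share no known scale, and lists were set side by side by place.

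Nuclear receptors are transcription factors that bind DNA through zinc fingers, and many switch activity when a small lipid-like molecule binds them. In flies the steroid 20-hydroxyecdysone binds EcR, which works as a dimer with usp, the fly RXR. The hormone-bound pair turns on early genes, among them further nuclear receptor genes that act on one another in a timed cascade at embryonic cuticle formation, at molts and at metamorphosis. Several of these genes are long and have alternative promoters that give proteins with different ends.

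The sequences beneath the IDR summits are shown first for the genes with the most summits and for the promoters. Each is the window of 201 bases centred on the summit, or the part of it that lies outside transcribed exons of the member, on the strand of the gene and read 5′ to 3′ from the RefSeq copy of the assembly. The Eip75B promoter is given as the 150 bases upstream of the Eip75B-RC start, whose summit lies just inside the transcript. Capitals mark matches on either strand to the searched motifs, GAGAG for GAGA factor, CGATA for BEAF-32 and the A tract AAAAAAAA, described with the motif counts.
Hr4 intron, strongest, chrX:1951810-1952010 (plus strand): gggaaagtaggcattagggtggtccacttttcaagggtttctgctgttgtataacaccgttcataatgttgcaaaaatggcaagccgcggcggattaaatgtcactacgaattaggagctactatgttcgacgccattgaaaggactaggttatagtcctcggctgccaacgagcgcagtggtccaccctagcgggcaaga
Hr4 intron, next, chrX:1963827-1964027 (plus strand): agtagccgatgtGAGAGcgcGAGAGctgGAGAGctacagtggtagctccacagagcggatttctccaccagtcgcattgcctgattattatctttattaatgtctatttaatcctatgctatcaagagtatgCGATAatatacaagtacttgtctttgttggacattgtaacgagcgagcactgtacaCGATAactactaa
Eip75B-RC upstream, chr3L:17999822-17999971 (minus strand): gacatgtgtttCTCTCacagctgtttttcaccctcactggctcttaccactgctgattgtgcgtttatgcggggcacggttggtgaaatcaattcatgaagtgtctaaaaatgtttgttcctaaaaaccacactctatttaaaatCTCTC
Eip75B intron, chr3L:18003435-18003635 (minus strand): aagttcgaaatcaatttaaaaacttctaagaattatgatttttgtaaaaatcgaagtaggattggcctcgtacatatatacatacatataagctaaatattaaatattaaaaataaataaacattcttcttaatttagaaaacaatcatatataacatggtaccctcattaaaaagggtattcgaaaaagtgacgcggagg
ftz-f1 intron, strongest, chr3L:18786731-18786931 (minus strand): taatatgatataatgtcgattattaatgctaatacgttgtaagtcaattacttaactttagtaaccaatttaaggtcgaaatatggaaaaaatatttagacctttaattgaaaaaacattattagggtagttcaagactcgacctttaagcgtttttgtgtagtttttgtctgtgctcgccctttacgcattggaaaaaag
ftz-f1 intron, next, chr3L:18784706-18784906 (minus strand): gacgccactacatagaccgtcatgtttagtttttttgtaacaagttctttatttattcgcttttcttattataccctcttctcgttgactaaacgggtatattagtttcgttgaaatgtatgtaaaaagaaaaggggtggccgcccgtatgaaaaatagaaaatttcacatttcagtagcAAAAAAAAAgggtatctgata
Hr78 start, chr3L:21496942-21497086 (minus strand): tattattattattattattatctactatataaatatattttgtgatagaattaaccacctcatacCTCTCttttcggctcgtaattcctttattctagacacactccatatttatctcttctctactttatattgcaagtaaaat
usp intron, chrX:2041387-2041460 (minus strand): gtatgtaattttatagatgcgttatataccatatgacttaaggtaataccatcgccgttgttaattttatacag
These windows are mostly rich in A and T, and those of ftz-f1 hold runs of A or T.

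The members carried 40 IDR summits inside the genes or within 2 kb, at 8 of the 10 genes. Across all protein-coding genes 37.6% had such a summit, and among the 8 members of 20 kb or more it was 6, against 60.1% of all genes of that length. The difference among long genes, 75% against 60.1%, rests on 8 genes and was not tested. The number of summits per gene was uneven. Hr4 had 11, ftz-f1 had 10 and Eip75B had 9, together 30 of the 40. EcR and Hr3 had 3 each, Hr78 had 2, usp and Hr38 had 1 each, and Eip78C and Hr39 had none. At least 9 summits were found at 18 protein-coding genes, 0.129% of all and 1.67% of those of 20 kb or more, and 3 of those 18 were members. At least 10 were found at 13 genes (0.0931%), 2 of them members, and at least 11 at 10 genes (0.0716%), with Hr4 among them. By number of IDR summits Hr4 held place 7 among protein-coding genes, ftz-f1 place 11 and Eip75B place 14. These places are ties, with 4, 3 and 5 genes at the same number. Only 8 of the 11 Hr4 summits lay inside the gene, and no places were made from counts inside genes. At least 3 summits were found at 5 members, against 4.59% of all protein-coding genes. The cut-offs of 3, 9, 10 and 11 equal counts of members in these data, so those members reach them by construction. The shares only describe where the members stand.

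**Figure D1:**
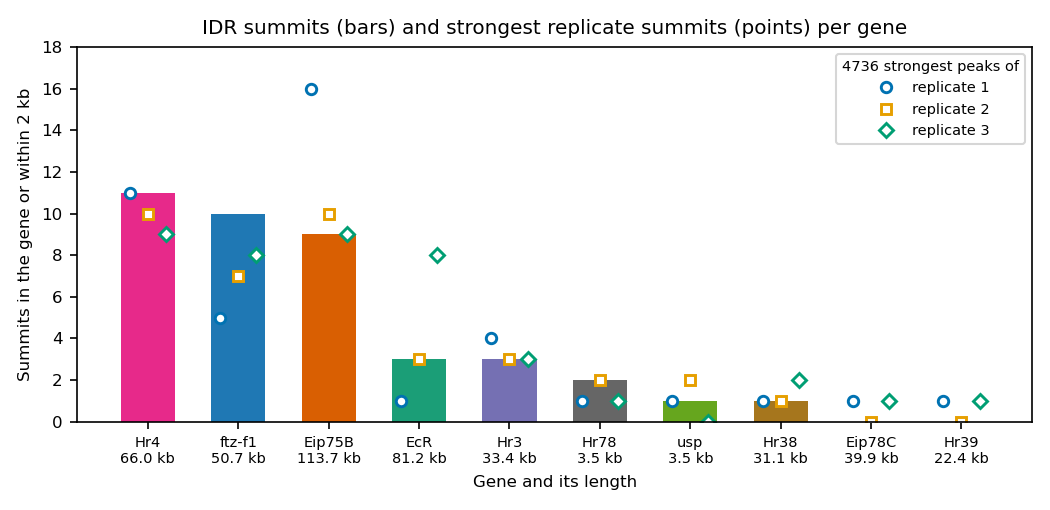
Bars give the IDR summits inside each member gene or within 2 kb, and points the summits among the 4736 strongest peaks of each replicate, with the gene length beneath each name. Hr4, ftz-f1 and Eip75B carry 11, 10 and 9 IDR summits, and the replicates spread most at Eip75B and EcR.

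The signals at members were not high for the IDR list. Their median was 224, against 267 over all IDR peaks, and they ran between 165 and 1579. For intronic summits alone the gap was smaller, with medians of 238 at members and 253 over the IDR list. Of the 40, 5 stood among the first 1000 of the 4736 IDR peaks, a smaller share than 1000 of 4736. Among the first 500 stood 4 of the 40, close to the share of 500 in 4736. Density was higher than over genes at large. The member genes and 2 kb around them covered 485 kb and held 8.24 summits per 100 kb, against 4.26 for all protein-coding genes and 2.88 for those of 20 kb or more. Counting only summits over 500 bp from any transcription start site (TSS) gave 6.18 per 100 kb at members, against 1.74 and 1.79. The length used here was still the whole covered length, with the sequence near starts included.

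The class of the member summits differed from the list as a whole. Of the 40, 28 (70%) were intronic, against 30.9% of all IDR summits, and 10 (25%) lay within 500 bp of a TSS of any gene, the promoter class, against 56.2%. Another lay in a 3′ UTR (0.845% of all IDR summits) and another between genes (10.6%). None lay in a 5′ UTR (0.507%), a coding exon (0.0845%) or another exon (0.866%). The list covers genes of every length, while most members are long. At protein-coding genes of 20 kb or more, 995 of 1601 IDR summits lay outside the promoter class, against 30 of 40 at all members. The 40 include 1 summit of usp and 2 of Hr78, genes under 20 kb, all in the promoter class. The intronic share at genes of 20 kb or more was not counted. Only 5 of the 10 promoter summits were at a start of the member itself. The other 5 were within 500 bp of the start of a neighbouring or nested gene only. The 28 intronic summits included 24 in Hr4, Eip75B and ftz-f1, and 14 of the 28 lay in a first intron of some transcript.

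**Figure D2:**
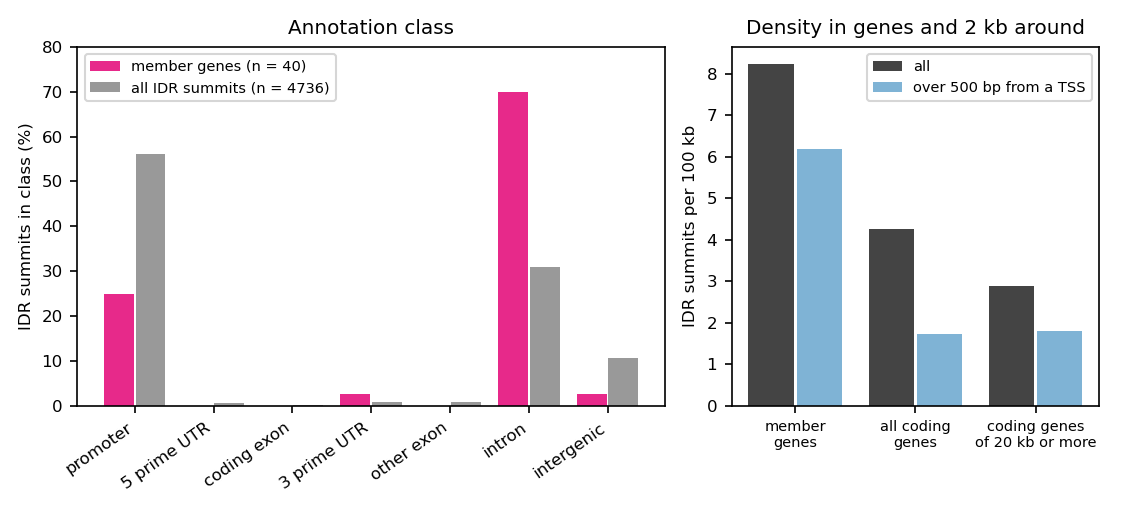
The left panel gives the share of IDR summits in each annotation class for the members (n = 40) and for all IDR summits (n = 4736), and the right panel gives IDR summits per 100 kb of gene and 2 kb around. Introns hold 70% of the member summits and 30.9% of all. The density over all members is 8.24 per 100 kb against 4.26 for all protein-coding genes, with 30 of the 40 summits at Hr4, ftz-f1 and Eip75B.

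EcR, the ecdysone receptor gene, spans 81.2 kb on 2R between 6087873 and 6169087 on the minus strand and has 4 distinct starts. None of its starts had an IDR summit within 500 bp. Its strongest summit, at 6151269, had a signal of 532 (place 751) and lay in a 56758 bp intron, 5860 bp downstream of the start shared by EcR-RD and EcR-RE. The replicate peaks that held this position had places 854, 672 and 753, so it ranked alike in all 3. A neighbouring summit at 6151472 had a signal of 210 (place 3414). In replicates 1 and 3 it fell in the same peak as the first, and in replicate 2 it had its own, at place 4640. The third EcR summit, at 6153425 with a signal of 167, was 154 bp from the start of the nested gene tRNA:Asn-GTT-1-3 and counts as a promoter of that tRNA gene, not of EcR. Its replicate places were 7957, 6843 and 3239, and replicate 3 alone had it among its strongest 4736. The count at EcR varied between the replicates. Among the strongest 4736 peaks it had 1, 3 and 8 summits in replicates 1, 2 and 3, or 4 ± 3.61 (SD, n = 3).

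The partner gene usp is short, 3.51 kb on X between 2038798 and 2042311 on the minus strand. Its IDR summit at 2041411 had a signal of 202 (place 3583) and lay 99 bp upstream of the usp-RA start, within the 74 bp intron of usp-RB shown above. Replicate places were 4693, 3264 and 10533, so replicates 1 and 2 had it among their strongest peaks and replicate 3 did not. The gene Actn overlaps this position. At the other start, usp-RB, the pooled list had a summit at place 8248, outside the IDR list.

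Eip75B encodes a heme-binding receptor that is induced early by the hormone and represses Hr3 protein. It spans 114 kb on 3L between 17950953 and 18064696 on the minus strand and has 7 distinct starts, of which Eip75B-RC and Eip75B-RA had an IDR summit within 500 bp. At the RC start the summit at 17999802 lay 19 bp inside the transcript and had a signal of 440 (place 1063). The replicate places were 1083, 949 and 1923, with replicate signals of 158, 184 and 90.7. This was the strongest promoter summit of any member and stood in the first 2000 of each replicate list.

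At the Eip75B-RA start the summit at 17971302 lay 137 bp inside the transcript, with a signal of 195 (place 3769). Its window had the highest GC content of the 40, 57.2%. Replicates 2 and 3 had it at places 3026 and 2643, and replicate 1 only at place 18711. The remaining 7 Eip75B summits were intronic, spread over the 65240 bp intron and the 23400 bp intron that follows it. The strongest of these, at 18003535, lay 3714 bp upstream of the RC start and had a signal of 437 and replicate places of 1165, 640 and 4970. The summit at 17988380 had a signal of 344 and places 2721, 1271 and 1670, all within the strongest 4736. The summit at 18019792 had a signal of 295 and places 4675, 1543 and 2393, also within the strongest 4736 of each. The 4 weaker intronic summits had signals between 167 and 216. At 18005264 (signal 213) the places were 3120, 3613 and 5577, and at 17995096 (signal 195) they were 2149, 4665 and 9303. At 18030016 and 18016292 replicate 3 had no peak, so replicate 3 ranked all 4 outside its strongest 4736 or lacked them. Eip75B had 16, 10 and 9 summits among the strongest peaks of replicates 1, 2 and 3, 11.7 ± 3.79 (SD, n = 3), the most of any member in replicate 1 and as many as Hr4 in replicates 2 and 3.

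Hr3, which encodes a receptor that activates ftz-f1 later in the cascade, had the strongest summit of all members. The gene lies on 2R between 10203995 and 10237348 on the minus strand. The summit at 10220066 had a signal of 1579 (place 77) and was intronic, 7891 bp from the nearest Hr3 start, shared by Hr3-RA and others. Places in replicates 1, 2 and 3 were 94, 71 and 77, and the replicate signals were 522, 607 and 472. It thus stood among the first 100 peaks of every list. The genes CG12912 and CG46321 overlap the position. The other Hr3 summits were weaker, with a signal of 224 at 10210888, which was 459 bp from the start of lncRNA:CR46322, and of 216 at 10230847. Their replicate places were 4512, 3443 and 3153, and 3337, 3812 and 5423. None of the 3 distinct starts of Hr3 had an IDR summit within 500 bp.

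Hr4 encodes a receptor that acts in the ecdysone cascade and in the control of larval growth and timing. It lies on X between 1941940 and 2007956 on the plus strand. The strongest of its 11 summits, at 1951910, had a signal of 809 (place 332), with replicate places of 815, 418 and 161 and replicate signals of 183, 274 and 337. The summit at 1963927 had 754 (place 368), with places 529, 438 and 258. The summit at 1947756 had 673 (place 466), with places 814, 561 and 335. These 3 intronic summits were in the first 1000 of every replicate, and only Hr3 had a member summit in a higher place.

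The first long intron of Hr4, 10387 bp, held 5 IDR summits, 4.81 per 10 kb, and each replicate also had 5 of its strongest 4736 peaks there. Besides 1951910 and 1947756 these were 1943782 (signal 362), which stood at places 1161, 1646 and 2156, and 1948691 (signal 284), which stood at 2327, 2002 and 3669. The weakest was 1953178 (signal 219), which stood at 2107, 3215 and 21701 and so fell low in replicate 3. A 14429 bp intron held the summit at 1963927, and a 9777 bp intron held a summit at 1984371. Its signal was 361, and replicates 1, 2 and 3 ranked it at 1070, 1296 and 6034. A summit in the 3′ UTR, at 2006021, had a signal of 171, and 2 of the 3 replicates had it outside their strongest 4736 peaks, at places 5027, 4278 and 4815.

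The remaining 3 Hr4 summits were outside the gene. The one at 1940186 lay 1754 bp upstream of Hr4 and 121 bp from the start of CG3587, with a signal of 378 and places 1145, 1762 and 1920. Those at 2009613 and 2009812, with signals of 392 and 211, were 249 bp from the start of PIG-K and 145 bp from that of lncRNA:CR45478. They cannot be given to Hr4 rather than to those neighbours. The summit at 2009613 stood at places 733 and 1566 in replicates 1 and 2, and replicate 3 had no peak over it. For 2009812 the places were 733, 6982 and 2991, with its replicate 1 peak shared with 2009613. Inside the gene Hr4 had 8 summits, none within 500 bp of either of its 2 starts. Among the strongest peaks Hr4 had 11, 10 and 9 summits in the 3 replicates, 10 ± 1 (SD, n = 3), the closest agreement of the 3 genes with the most summits.

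The gene ftz-f1 encodes an orphan receptor that serves in embryonic segmentation as partner of the homeodomain protein Ftz and later as a competence factor for ecdysone. It lies on 3L between 18750607 and 18801309 on the minus strand. All of its 10 IDR summits were intronic, 9 of them in the 33674 bp second intron of ftz-f1-RB, 2.67 per 10 kb. Their signals were low, between 165 and 333. The strongest, at 18786831, had a signal of 333 (place 1701) and replicate places of 1243, 1454 and 5640. The next, at 18784806, had 273 (place 2291), places 5770 and 2640 in replicates 1 and 3 and no peak over it in replicate 2, where the nearest summit was 48 bp away. The summit at 18769502 had 239 and places 2677, 3481 and 2866, and it was the only ftz-f1 summit within the strongest 4736 of all 3 replicates.

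The replicates ranked other ftz-f1 summits far apart. The summit at 18782185 had places 1892, 1939 and 19113. The summit at 18789904 had places 8057, 8986 and 989, and that at 18786232 had 9512, 6662 and 1654. The summit at 18791662 (signal 212) stood at 2165, 6870 and 3703. That at 18756762 (signal 170), in a 7455 bp intron and the only one outside the second intron, had no peak in replicate 1 and stood at 4383 and 7289 in replicates 2 and 3. No replicate was the highest or lowest throughout. The weakest IDR summit of all members, at 18782385 with a signal of 165 (place 4672), shared a peak with 18782185 in replicate 1 and had no peak in replicate 3. Only a summit at 18766394, 650 bp upstream of the start shared by ftz-f1-RC and ftz-f1-RD, came near an own start, and replicate 1 had no peak there. The transcript lncRNA:CR45939 overlaps 7 of the ftz-f1 summits. Among the strongest peaks ftz-f1 had 5, 7 and 8 summits in replicates 1, 2 and 3.

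**Figure D3:**
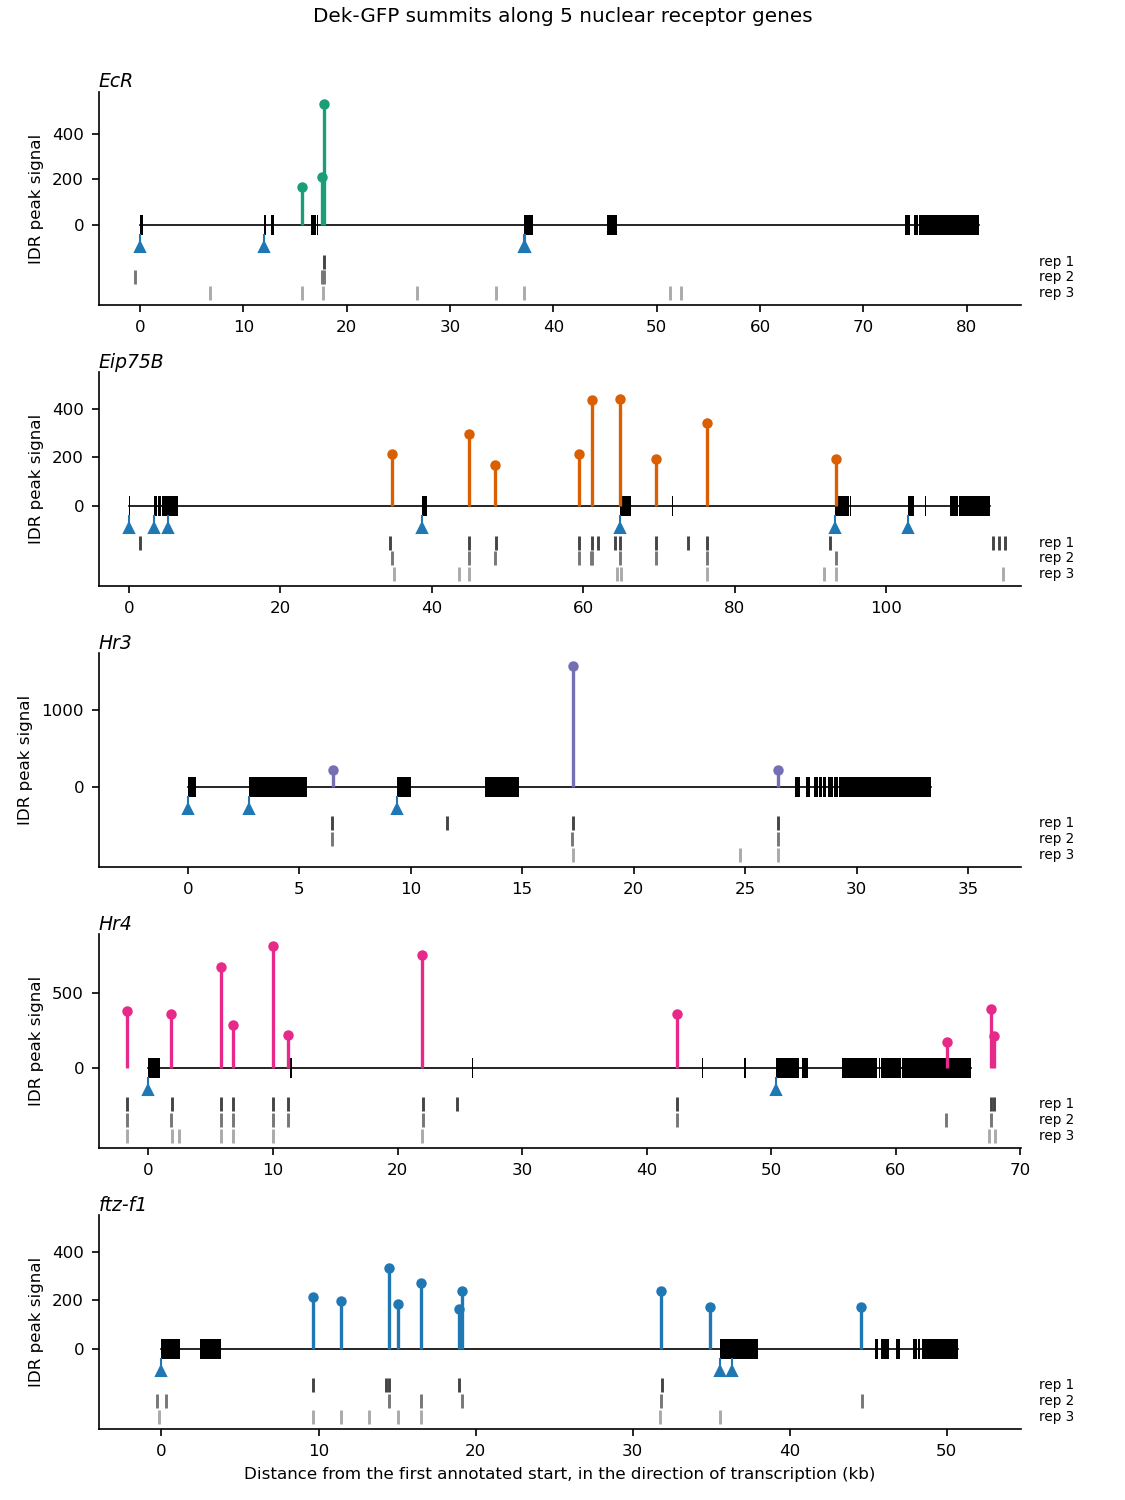
Each panel runs along 1 gene in the direction of transcription, with distance in kb from its first annotated start, exons as black blocks and starts as blue triangles. Stems end at the signal of each IDR summit, and the 3 rows of ticks are summits among the 4736 strongest peaks of each replicate. Most IDR summits of Hr4, Eip75B and ftz-f1 stand in long introns away from the triangles, and the Hr3 summit reaches 1579.

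Hr78, whose receptor is needed for ecdysone responses in larvae, is 3.48 kb long and carried both of its IDR summits at its starts. The summit at 21496986 on 3L had a signal of 402 (place 1226), was 45 bp upstream of the Hr78-RF start and had replicate places of 1487, 999 and 1333. The summit at 21497185 had a signal of 209 (place 3442), was 2 bp upstream of the Hr78-RE start and shared its replicate 1 peak with the other. Replicate 3 had no peak over it. The gene asRNA:CR43933 overlaps both summits, so both sites belong to 2 annotations. The 2 members under 20 kb, usp and Hr78, each had a promoter summit, against 22.1% of protein-coding genes of that length, and 35.8% of those had any IDR summit in the gene or within 2 kb.

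Hr38, the fly relative of the NR4A receptors whose protein can also pair with usp, had 1 summit, at 20715308 on 2L, 720 bp upstream of its start and between genes. Its signal was 224 (place 3072), and its places were 7167, 2589 and 2294. Its 31.1 kb gene body held no IDR summit. Eip78C, an early-late gene, and Hr39, a close relative of ftz-f1 that binds similar DNA sites, had no IDR summit. The strongest Eip78C pooled summit, at 21241869 on 3L in an intron, had a signal of 135 (place 6072) and places 6256, 7947 and 24248. The strongest Hr39 pooled summit, at 21235750 on 2L and 1500 bp upstream of its start, had a signal of 129 (place 6467) and places 13211, 8072 and 8301. Another, 28 bp upstream of the start, was at place 7650, with places 11945, 9594 and 3419. Both genes had 1, 0 and 1 summits among the strongest 4736 of replicates 1, 2 and 3, while their strongest pooled summits, at places 6072 and 6467, fell outside the 4736 of the IDR list.

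**Figure D4:**
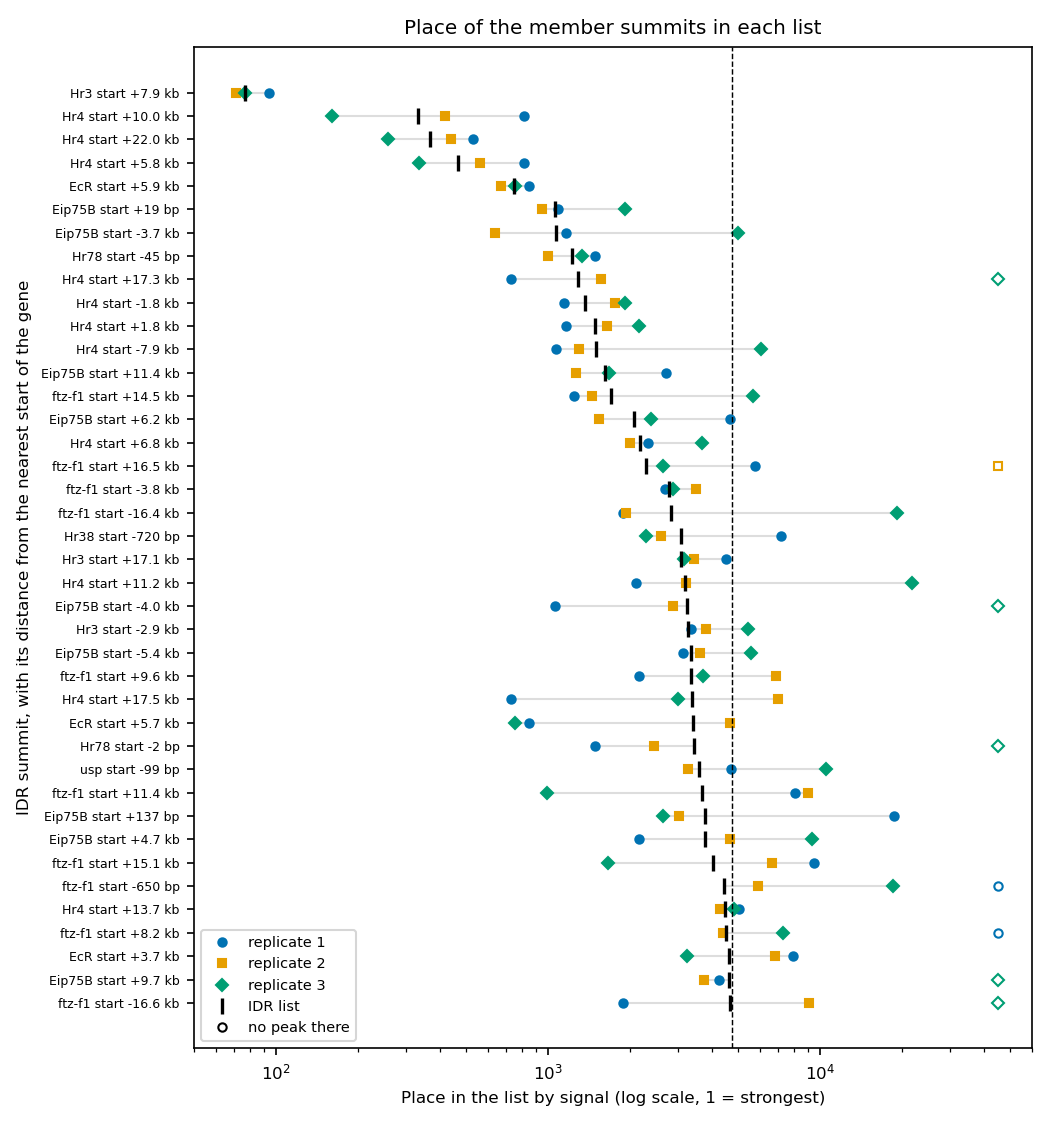
Each row is 1 of the 40 IDR summits, named by gene and by its distance from the nearest start of that gene, with its place in the IDR list (bar) and in each replicate list (points) on a log axis. The dashed line marks place 4736 and open points mark replicates with no peak over the summit. Hr3 leads at place 77 with its replicates between 71 and 94, while spread varies from row to row further down, and 8 rows have an open point.

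The alternative starts were then compared. The members have 29 distinct starts, and 6 (20.7%) had an IDR summit within 500 bp, against 20.8% of all starts of protein-coding genes. By gene it was 3 of 10, against 22.8% of protein-coding genes, and among the 8 of 20 kb or more only Eip75B, against 32.0%. None of these differences was tested, and the last rests on 8 genes. An IDR summit inside the gene and over 500 bp from every TSS was found at 5 members (EcR, Eip75B, Hr3, Hr4 and ftz-f1), against 6.55% of protein-coding genes, and these made 5 of the 8 members of 20 kb or more, against 40.4% of genes of that length. In the pooled list 22 of the 29 member starts (75.9%) had a summit within 500 bp, against 49.0% of all starts of protein-coding genes. In replicate 1 it was 12 (41.4%, against 42.7%), in replicate 2 it was 22 (75.9%, against 52.8%) and in replicate 3 it was 22 (75.9%, against 50.4%). Replicate 1 thus had fewer member starts with a summit than the others. The pooled and replicate shares use the full lists, which reach weak peaks. At the Hr38 start the pooled summit was at place 17117, with a −log10 q of 0.687, and at Hr3-RD it was at place 21799. Nearby starts can also share a summit. EcR-RG and the start of EcR-RB and EcR-RC shared pooled place 9474, and Hr78-RE and Hr78-RF shared place 1226. The shares of starts, in the IDR list too, therefore do not count separate sites. A pooled summit in the gene or within 2 kb was found at all 10 members, against 68.3% of protein-coding genes. Outside the IDR list the strongest pooled summits at starts were at ftz-f1-RB, 261 bp upstream at place 5143, at the start shared by ftz-f1-RC and ftz-f1-RD, 113 bp inside the transcript at place 6148, and at EcR-RA, 482 bp upstream at place 6219. Replicates 2 and 3 had the ftz-f1-RB summit at places 2890 and 2276, and replicate 1 had no peak over it.

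Several members also had pooled summits just short of the IDR list. Taking the strongest of each gene, these were at 1944420 in Hr4 (place 4753), at 10212489 in Hr3 (place 4833) and at 18771165 in ftz-f1 (place 4943). Next came 17948962 beyond the end of Eip75B (place 5027) and 20682048 beyond the end of Hr38 (place 5106). The Hr38 one lay 32540 bp from the Hr38 start and within 500 bp of the start of another gene. The strongest at Hr78 was far lower, at place 14678. Pooled summits in all numbered 228 at the members, between 3 at Hr78 and 67 at Eip75B, and 188 of them were outside the IDR list.

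**Figure D5:**
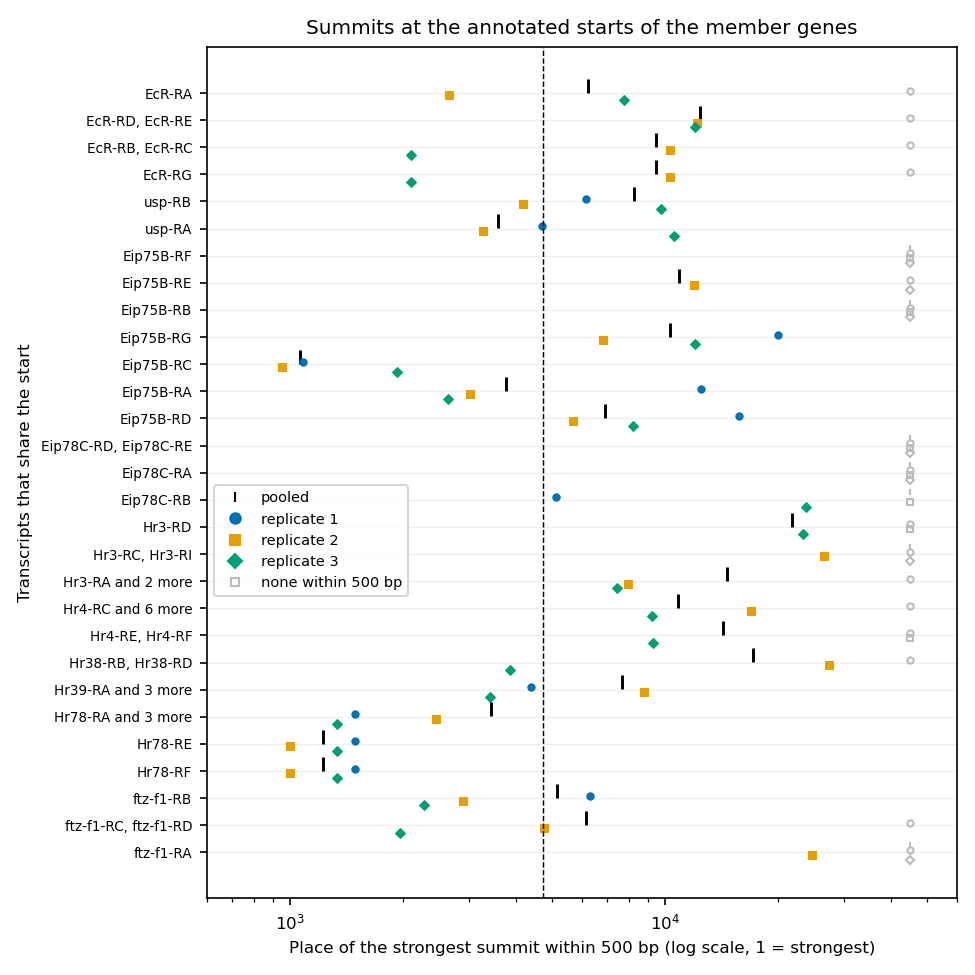
For each of the 29 distinct starts the plot gives, on a log axis, the place of the strongest summit within 500 bp in the pooled list (bar) and in each replicate (points). Grey marks at the right stand for lists with no summit there and the dashed line marks place 4736. Only usp-RA, Eip75B-RC, Eip75B-RA and the 3 Hr78 starts have a pooled summit left of the line.

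Long introns were also described as a class. Of 19 distinct member introns of 10 kb or more, 11 held an IDR summit, against 36.1% of 2426 such introns in the genome, and 4 held at least 5, against 2.10%. These introns overlap, since alternative transcripts of a gene share parts of them, and the 4 came from Hr4, ftz-f1 and Eip75B only. The cut-off of 5 equals the count of the 10387 bp Hr4 intron, so that intron reaches it by construction. Introns with none included those of 27810 bp in EcR, 31685 bp in Eip78C, 14989 bp in Hr39 and 23142 bp in Hr38. Hr4 too had such an intron, of 11126 bp.

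The replicates bear on how firm these counts are. Among its 4736 strongest peaks, replicate 1 had 42 summits at members, replicate 2 had 38 and replicate 3 had 42, 40.7 ± 2.31 (SD, n = 3). Introns held 71.4%, 63.2% and 57.1% of them, against 33.1%, 29.1% and 32.4% of the strongest peaks of each list. Promoters held 21.4%, 31.6% and 38.1%, against 53.7%, 58.9% and 55.0%. Each replicate alone therefore gave more intronic and fewer promoter summits at members than over its list. The list shares cover genes of every length, and shares at long genes alone were not counted per replicate. Of the 40 IDR summits, 15 lay in a strongest peak of all 3 replicates (37.5%, against 49.5% of all IDR summits), 17 in those of 2, 7 in those of 1 and 1 in those of none. For intronic summits it was 11 of 28, against 50.4% of intronic IDR summits. Some peak of each full list covered 32 of the 40, against 86.0% of IDR summits, although the lowest −log10 q in those lists was 0.186, 0.406 and 0.407, values of peaks that do not pass a q of 0.05. The strongest peaks of replicate 1 held 31 of the 40 (77.5%, against 76.6% of all IDR summits), those of replicate 2 held 32 (80%, against 83.1%) and those of replicate 3 held 23 (57.5%, against 72.3%). Replicate 3 was the lowest both at members and over the list.

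A number of summits came in close pairs. Of the 40, 8 had another IDR summit 190 to 210 bp away, against 5.07% of all IDR summits. They formed 4 pairs, at EcR, Hr78, ftz-f1 and beyond the end of Hr4. Within each pair both summits fell in the same peak of replicate 1. Counting such a pair as 1 site gives 36 sites in place of 40.

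The sequences were searched within 100 bp of each summit on both strands. The core AGGTCA, the hexamer recognised by many nuclear receptors, was in 0 of the 40 windows, against 4.03% of all IDR windows and 3.26% of the windows at all protein-coding starts. The longer form CAAGGTCA and the palindromic ecdysone response element were in 0 as well, and in 0.232% and 0% of all IDR windows. With 40 windows, few or no matches to such rare words can occur, and nothing is drawn from it about the factors. GAGAG, the word bound by GAGA factor, was in 10 (25%), against 19.5% of IDR and 25.0% of start windows. The A tract AAAAAAAA was in 10 (25%), against 16.3% and 10.5%, and 6 of these 10 were ftz-f1 windows. CGATA, a word bound by BEAF-32, was in 6 (15%), against 29.4% and 37.1%, and TGTTTAC, a forkhead word, in 2, against 6.42% and 6.12%. The Zelda word CAGGTAG was in 0, against 0.697% of IDR windows. The E-box CACGTG was in 0, against 1.71%, and TATCGATA, the DRE word that contains CGATA, in 0, against 4.18%. Most member summits, 28 of the 40, were intronic, and intronic IDR windows alone gave other shares. These were 0.205% for TATCGATA, 21.2% for CGATA, 19.7% for the A tract, 20.96% for GAGAG and 7.85% for TGTTTAC. The member counts were not split by class, so differences from all IDR or start windows cannot be separated from class. The median GC content of the windows was 34.8%, against 33.8% over all IDR summits and 33.3% over intronic ones, with a range of 22.4% to 57.2%.

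AGATGGCG, the core of the word bound by the insulator protein CTCF, was chosen after the sequences had been seen and has no test. CTCF binding was not measured here, and a match does not tell which factor, if any, binds the site. The word was in 6 of the 40 windows (15%), against 1.67% of all IDR windows, 1.30% of intronic ones and 0.649% of start windows. The 6 were both windows of the EcR pair, which do not overlap, 3 intronic windows of Eip75B and 1 of Hr4. The 4 windows outside EcR are shown because all carry that word in intronic summits far from a start. Capitals mark the word, here read as CGCCATCT on the strand of the gene, and the Hr4 window holds it at 2 positions.
Eip75B intron a, chr3L:17988280-17988480 (minus strand): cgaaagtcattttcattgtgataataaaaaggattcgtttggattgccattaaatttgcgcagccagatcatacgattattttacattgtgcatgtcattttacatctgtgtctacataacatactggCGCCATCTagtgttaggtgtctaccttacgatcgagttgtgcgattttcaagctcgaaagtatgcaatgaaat
Eip75B intron b, chr3L:18019692-18019892 (minus strand): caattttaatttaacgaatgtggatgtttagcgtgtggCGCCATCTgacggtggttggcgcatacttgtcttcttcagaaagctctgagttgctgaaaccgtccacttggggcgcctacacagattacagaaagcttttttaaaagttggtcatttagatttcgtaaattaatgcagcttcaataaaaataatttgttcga
Eip75B intron c, chr3L:18016192-18016392 (minus strand): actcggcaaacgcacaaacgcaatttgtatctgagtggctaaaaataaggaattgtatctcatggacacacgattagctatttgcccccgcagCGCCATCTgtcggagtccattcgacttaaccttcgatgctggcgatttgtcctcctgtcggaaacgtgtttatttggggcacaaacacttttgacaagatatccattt
Hr4 intron d, chrX:1953078-1953278 (plus strand): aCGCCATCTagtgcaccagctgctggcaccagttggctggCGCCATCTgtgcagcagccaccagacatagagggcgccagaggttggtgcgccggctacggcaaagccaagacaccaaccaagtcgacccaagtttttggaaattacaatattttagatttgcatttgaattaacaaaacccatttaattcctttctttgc
The Eip75B windows a and b belong to summits within the strongest 4736 peaks of every replicate, at signals of 344 and 295. Window c, with a signal of 167, had no peak in replicate 3, and the Hr4 window was at place 21701 there.

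Other genes of the pathway were set beside the members. Of 11 further nuclear receptor genes, 4 had an IDR summit in the gene or within 2 kb and 3 at a promoter, with signals of 839 at Hr96, a xenobiotic and lipid sensor, 586 at ERR, a regulator of carbohydrate metabolism, and 446 at Hnf4, which controls fat use. Of 10 genes for making, importing or breaking down ecdysteroids, only shd, the last hydroxylase of the synthesis, had an IDR summit, and none had one at a promoter. Of 8 other early ecdysone genes, 6 had a summit and 3 a promoter summit, with signals of 1841 at Sox14, 1675 at E23 and 501 at vri. Sox14 encodes a transcription factor and E23 a membrane transporter. Of 9 coregulator genes, 6 had a summit and 4 a promoter summit, at alien (544), tai (436), rig (204) and trr (203). As background, 37.6% of all protein-coding genes had an IDR summit in the gene or within 2 kb, and 22.8% had one within 500 bp of a TSS. The 4 of 11 further receptor genes are close to the first share. The members' 40 summits compare with 8, 2, 10 and 16 in these lists, whose genes are shorter, with median lengths of 8.06, 3.59, 21.1 and 8.64 kb, against 36.6 kb for the members.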

How the data were processed

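Dek-GFP ChIP-seq peaks of 3 biological replicates, 1 group, were used on the dm6 build, per the labels. The authors deposited 5 narrowPeak lists; each peak has a signal value, a −log10 q value and a summit offset, per the deposited descriptions. The lowest deposited −log10 q was 3.25 in the IDR list and 0.334 in the pooled list, and it was used only to describe the lists. For the deposited signal the unit, and for the lists the peak caller, aligner and cut-off of the IDR step, were not given in the sources used here. Each of the replicate and pooled lists holds exactly 30000 peaks, so that length looks like a set limit. Read counts are not part of the lists: the depth of each replicate is unknown, and no interval needing it is given.

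Gene models were those of Ensembl release 115. Bases were read from RefSeq's Release 6 assembly. All 10 members had the same coordinates in both. Summits were assigned to a gene within 2 kb, and to classes in this order: promoter (within 500 bp of a TSS), then UTRs and exons, with 5′ UTR before coding exon and 3′ UTR before any other exon, then intron, then intergenic. A replicate held an IDR summit when one of its peaks covered the position. Motifs were counted on both strands within 100 bp of summits. The counts are descriptions without a test, set beside the same count over all genes, starts, introns or summits. By the rule for named genes, every member was named with its IDR summits and its strongest pooled summit outside the IDR list, as were genes of the other lists with a promoter summit. Members, lists and motifs were chosen with earlier results of these data known. Scripts were tested on simulated data. Analyses used Python 3.11.15, numpy 2.4.6, pandas 2.3.3 and matplotlib 3.10.9. Alternatives covered windows, list lengths, overlap rules and each replicate left out or used alone.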

Additional observations from a re-analysis of the deposited data

How the results depend on the processing

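No paired analysis was possible because all replicates belong to 1 group. Of 49 alternative values, 32 stayed near the reported one and 17 moved. The number of members with an IDR summit at a TSS, 3 as reported, was 5 within 1000 bp, 1 with only the first start of each gene, 9 in the full pooled list, and 5 and 6 in the strongest peaks of replicates 2 and 3 alone. The 40 summits at members became 17 in the strongest 2368 IDR peaks and 228 in the full pooled list. With each replicate left out in turn, peaks shared by the other pair (lists of 2612 to 3167) gave 16 to 24 summits, at 6 to 7 members, with 2 to 3 members at a TSS; these lists are shorter by construction. The 15 summits in strongest peaks of all 3 replicates became 28 with the 10000 strongest peaks and 32 with the full lists. The median signal of 224 became 392 in the strongest 2368 IDR peaks. The ratio of the member median to the list median, an alternative chosen after seeing the data, was 0.840, against 0.956 in those 2368, and 0.928, 1.01 and 0.924 in replicates 1, 2 and 3, so the direction was reversed in replicate 2. The median signal was not run for replicates alone, since signals of different lists share no known scale. The cause of these differences was not tested. Without read counts, the depth behind a weak or missing peak is unknown, and with no control analysed here, peaks that an untagged line would also give could not be removed.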
